A study of Mus musculus with 24 samples.

Results

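Primary mouse embryonic fibroblasts without CHOP were compared after 8 h and after 4 h of tunicamycin, and the 8 arrays of these groups were chosen by their titles from the 24 arrays of the study. There were 4 arrays per group, lettered A to D, and each measured total RNA from CHOP-/- cells given tunicamycin at 2 µg/ml, for 8 h in one group and for 4 h in the other. The 4 arrays of untreated CHOP-/- cells showed where a change began, and the 8 arrays of wild type cells at 4 h and 8 h of the same treatment gave the same interval with CHOP. The question was which responses to tunicamycin went on between 4 h and 8 h without CHOP, which reversed and which began late. Separate cultures are not mentioned in the labels, so the spread among the 4 arrays of a group may be technical. The p-values rest on this spread pooled over all 24 arrays and 6 groups, and not on the compared groups alone. A wider spread within any group therefore enters them only in part. The labels name no solvent control and give no time for the untreated cells.

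Tunicamycin blocks the first step of N-linked glycosylation, and unfolded glycoproteins then gather in the endoplasmic reticulum (ER). The cell answers with the unfolded protein response, which has 3 sensors in the ER membrane. IRE1 splices the Xbp1 mRNA and ATF6 is cut to a free transcription factor, and both raise genes for folding, export and degradation of ER proteins. PERK slows translation and favours that of ATF4, which raises genes of amino acid supply and the Ddit3 gene that encodes CHOP. CHOP is best known for its part in cell death under prolonged ER stress.

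Ddit3 was measured first, as a check of the genotype. Its probe set gave signals of 33.4, 15.6, 40.4 and 36.9 in CHOP-/- arrays A to D at 4 h and 7.1, 39, 24.5 and 11.4 at 8 h. The wild type arrays at 8 h gave 3857, 4782.1, 4009.9 and 4883. The level in CHOP-/- cells was thus near the lower end of the scale at both times, the groups overlapped, and the 8 h against 4 h change was -0.48 on the log2 scale (adjusted p = 0.488, limma with Benjamini-Hochberg adjustment, as for all adjusted p-values here). All changes are of log2(signal + 5.7) after quantile normalization, so the change of a gene with a low signal is understated.

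Fibroblast markers were measured as a check of the cell label. The summed signal of 13 of them lay between 21500 and 31400 in the 4 h arrays and between 20600 and 30700 in the 8 h arrays. Of the 12 tested, 1 passed the test: S100a4, a calcium-binding protein, with -0.86 (adjusted p = 0.00637) and -0.72 (adjusted p = 0.177) without 4 h arrays C and D. Of the 8 marker lists of other cell types, none held a called gene. Few of their members were tested, from 1 endothelial marker to 11 leukocyte markers. Over all genes tested 5.53% were called, so the absence of calls in lists this short says little of cell types. The 11 smooth muscle and myofibroblast markers summed to between 27500 and 35200 at 4 h and between 27600 and 31200 at 8 h. These sums were as high as those of the fibroblast markers, so the sums do not set these cell types apart. Skeletal and cardiac muscle markers summed to 3650 to 6070 at 4 h, and neural markers to 3850 to 4230. Leukocyte markers (17 on the array) summed to between 891 and 1920 at 4 h and between 611 and 1700 at 8 h, with 5 of them under the filter signal of 27.7 in every 4 h and 8 h CHOP-/- array. In bulk RNA, fewer cells of a type and less RNA per cell cannot be told apart.

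The 4 h arrays fell apart by letter. On the first principal component of all 24 arrays, which held 23.3% of the variance, 4 h arrays A and B scored -0.44 and -0.99, whereas C and D scored -17.64 and -12.66. The untreated CHOP-/- arrays lay between -20.74 and -10.75 and the 8 h arrays between 12.7 and 15.11. Arrays C and D of the 4 h group thus lay among the untreated arrays along this axis. They did not lie there for every tunicamycin gene: Herpud1, an ER membrane protein of the degradation machinery, gave 5367.2, 4171.3, 4941.7 and 4060.1 in 4 h arrays A to D and 545.2, 707.8, 630.6 and 796 in untreated arrays. The ratio of 3′ to 5′ signal of Gapdh was 0.81, 0.75, 0.78 and 0.8 in 4 h arrays A to D, and 0.75 to 0.85 in the 8 h arrays. Many results below are therefore also given without 4 h arrays C and D. Where no such value stands, the result is for all arrays and may depend on these arrays.

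**Figure D1:**
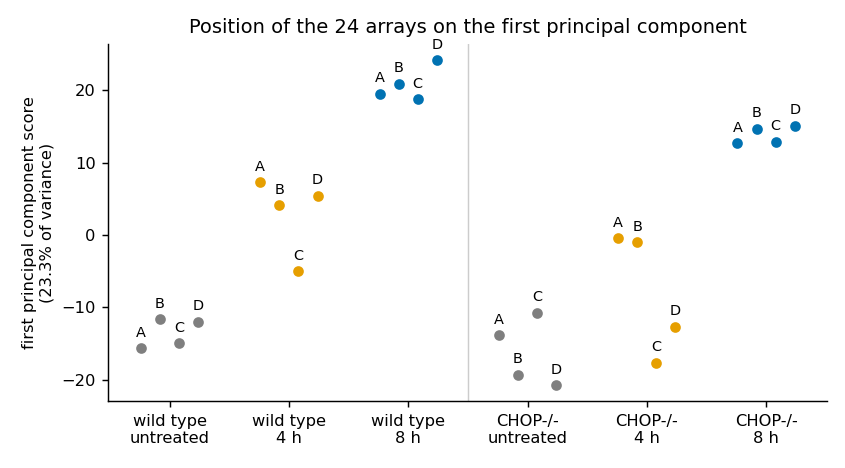
Score of each of the 24 arrays on the first principal component (vertical axis, no unit, 23.3% of the variance) by genotype and time, with 1 point for each array and its letter. CHOP-/- 4 h arrays C and D, at -17.64 and -12.66, lie among the untreated arrays, and the 8 h arrays lie above all others of their genotype.

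Of 5692 genes tested, 315 passed at an adjusted p under 0.05 between 8 h and 4 h without CHOP, which is 5.53% of them. There were 194 called higher at 8 h (3.41%) and 121 called lower (2.13%), and 78 changed at least 2-fold. Higher calls made up 61.6% of the total, and 79.7% when each array was centred on its median in place of quantile normalization, which moved the median of all genes from -0.01 to 0.06. The 4 arrays of both groups did not overlap for 670 genes, 11.8% of those tested. Without 4 h arrays C and D, 33 genes were called (21 higher and 12 lower), and 32 of them were among the 315. Without 4 h arrays A and B, the count was 780. Leaving out array C alone gave 120 and array D alone 134. Among the 8 h arrays, the count was 193 without A, 298 without B, 183 without C and 154 without D.

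The risen genes of the ER are shown first by their promoters, because a known element of the ER stress response, the ERSE, stood in several of them. It holds CCAAT and, after a gap of 9 bases, CCACG, and ATF6 and XBP1 act on it together with NF-Y. The 250 bases before the annotated start of 3 risen genes are given 5′ to 3′ from RefSeq (build GRCm38.p6, plus strand, the strand of each gene), with the fixed letters of the element in capitals. Ero1b lies at chr13:12565633-12565882, with the element on the minus strand 201 to 183 bases before the start. Creld2 lies at chr15:88819396-88819645, with the element on the minus strand 126 to 108 bases before the start. Dnajc3 lies at chr14:118937682-118937931, with the element on the plus strand 105 to 87 bases before the start.
Ero1b: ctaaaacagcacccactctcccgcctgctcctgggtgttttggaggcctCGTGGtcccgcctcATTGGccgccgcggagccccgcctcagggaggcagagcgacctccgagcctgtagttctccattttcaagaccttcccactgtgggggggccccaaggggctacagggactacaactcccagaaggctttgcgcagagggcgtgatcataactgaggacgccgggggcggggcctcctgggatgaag
Creld2: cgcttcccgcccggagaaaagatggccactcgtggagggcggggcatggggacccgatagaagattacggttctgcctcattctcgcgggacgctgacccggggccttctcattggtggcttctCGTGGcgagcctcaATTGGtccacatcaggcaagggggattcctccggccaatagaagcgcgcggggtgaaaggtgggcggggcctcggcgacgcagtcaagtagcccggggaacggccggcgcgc
Dnajc3: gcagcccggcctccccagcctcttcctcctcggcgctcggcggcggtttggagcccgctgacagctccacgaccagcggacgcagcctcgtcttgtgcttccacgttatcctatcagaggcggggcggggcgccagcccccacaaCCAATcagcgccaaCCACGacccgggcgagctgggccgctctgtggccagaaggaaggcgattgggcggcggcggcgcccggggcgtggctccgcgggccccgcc

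Promoters of 300 bases were in the RefSeq table for 161 of the 194 genes called higher, and 6 of these held the ERSE on either strand (3.73%). They were Ero1b, Creld2, Dnajc3, Pdia6, Hsp90b1 and Hspa5. Without 4 h arrays C and D, Ero1b and Creld2 kept their call and the others lost it, so this share depends on those arrays. None of 91 promoters of genes called lower held it. The share was 0.238% over 4622 tested genes with a promoter (11 genes) and 0.119% over all 32851 promoters in the table (39). Of 24 promoters of the ER chaperone list, 7 held it, Canx being the member that was not called (0.32, adjusted p = 0.455). The other 3 motifs searched on both strands were the UPRE (TGACGTGG), the ATF4 element (TGATGNAA) and the sterol element (TCACNCCAC). Their shares among genes called higher were 1.24%, 3.11% and 0.621%, and over the tested genes 1.21%, 2.75% and 1.58%. Among genes called lower they were 1.1%, 3.3% and 2.2%. A match is a description of letters and not a bound site.

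Many ER chaperones and folding enzymes rose between 4 h and 8 h without CHOP. Of 26 members tested, 13 were called higher and 1 lower, with a median log2 change of 0.42, against -0.01 over all genes tested. Ero1b, an ER oxidase that passes disulfide bonds to protein disulfide isomerase, gave signals of 104.8, 95.3, 19.4 and 40.5 in 4 h arrays A to D and 320.1, 385.3, 389.9 and 446.3 in 8 h arrays A to D. All 8 h arrays lay above all 4 h arrays, and 4 h arrays C and D lay lowest. Its log2 change was 2.77 (SE 0.356, adjusted p = 5.47e-05), the largest rise of any called gene, and 1.88 (adjusted p = 0.00147) without C and D. Creld2, an ER protein with disulfide isomerase activity, gave 1292.5, 1560.7, 465.3 and 634.5 at 4 h and 3581.5, 3177.7, 4142.6 and 3382.2 at 8 h, again without overlap. Its log2 change was 2.00 (SE 0.251, adjusted p = 4.13e-05), and 1.32 (adjusted p = 0.000623) without C and D. Thus both kept their call without the 4 h arrays that stood low, with a smaller change.

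The J-domain cofactors of BiP followed. Dnajb11, which brings unfolded proteins to BiP, gave 816.8, 748, 388.1 and 471.6 at 4 h and 1299.5, 1229.4, 1387.7 and 1399.2 at 8 h. Its log2 change of 1.18 (adjusted p = 0.000315) was 0.77 (adjusted p = 0.0303) without C and D. Dnajc3 gave 1650.2, 1164.4, 544 and 733.8 at 4 h and 2820.2, 3214.6, 2115.4 and 2408.6 at 8 h. In both genes the 8 h arrays lay above every 4 h array, and 4 h array C was the lowest. Dnajc3 changed by 1.45 (adjusted p = 0.000893) in the 8 arrays and stood at 0.89 (adjusted p = 0.0709) without C and D. Dnajb9, which helps degrade misfolded proteins, gave 1478.3, 868.8, 685 and 754.6 at 4 h and 1718.3, 1821.6, 1811.6 and 1992.8 at 8 h, and its change was 1.02 (adjusted p = 0.00822), or 0.70 (adjusted p = 0.287) without C and D. The calls of Dnajc3 and Dnajb9 therefore rested on those arrays.

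Pdia4, a protein disulfide isomerase, gave 1402, 1928.7, 950.6 and 1507 at 4 h and 3878.2, 3520.5, 2914.4 and 3228.7 at 8 h. Its groups did not overlap, and the change of 1.22 (adjusted p = 0.00038) stood at 0.99 (adjusted p = 0.0303) without C and D. Hspa5 (BiP, the main ER chaperone of the Hsp70 family) had reached 6818.8, 4549.3, 4730.5 and 4288.2 at 4 h and gave 6201.4, 7332.6, 5979.9 and 6323.7 at 8 h. Its groups overlapped through 4 h array A. Its change of 0.36 (adjusted p = 0.0372) was 0.17 (adjusted p = 0.661) without C and D. Leaving out any 1 array also ended this call, 4 h array A being the exception. Hsp90b1 (GRP94, the ER member of the Hsp90 family) gave 4652.9, 4000.5, 2131.4 and 2410.6 at 4 h and 4948.9, 6113.4, 5235 and 5244.9 at 8 h. Its change was 0.79 (adjusted p = 0.0152), and 0.30 (adjusted p = 0.523) without C and D, each of which also ended the call alone, with arrays A and B near the 8 h level already. Manf, Pdia6, Fkbp11, Erp44 and Serp1 were the other members called higher, with log2 changes between 0.33 (Serp1) and 0.83 (Pdia6). Txndc12, a small thioredoxin-like ER protein, was the 1 member called lower, with -0.50 (adjusted p = 0.0389). Its call ended without C and D (-0.33, adjusted p = 0.53), under median centring of the arrays, and without any 1 array other than 4 h array A and 8 h array D. Ero1a, the oxidase related to Ero1b, did not pass, with 0.49 (adjusted p = 0.0518). It passed in 7 alternatives, among them the letter as a block (0.49, adjusted p = 0.0421), median centring and the fit without 4 h arrays A and B (0.74, adjusted p = 0.00429), and stood at 0.24 (adjusted p = 0.67) without C and D. Over the whole list, 4 members were called higher without 4 h arrays C and D, and the median was 0.35.

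**Figure D2:**
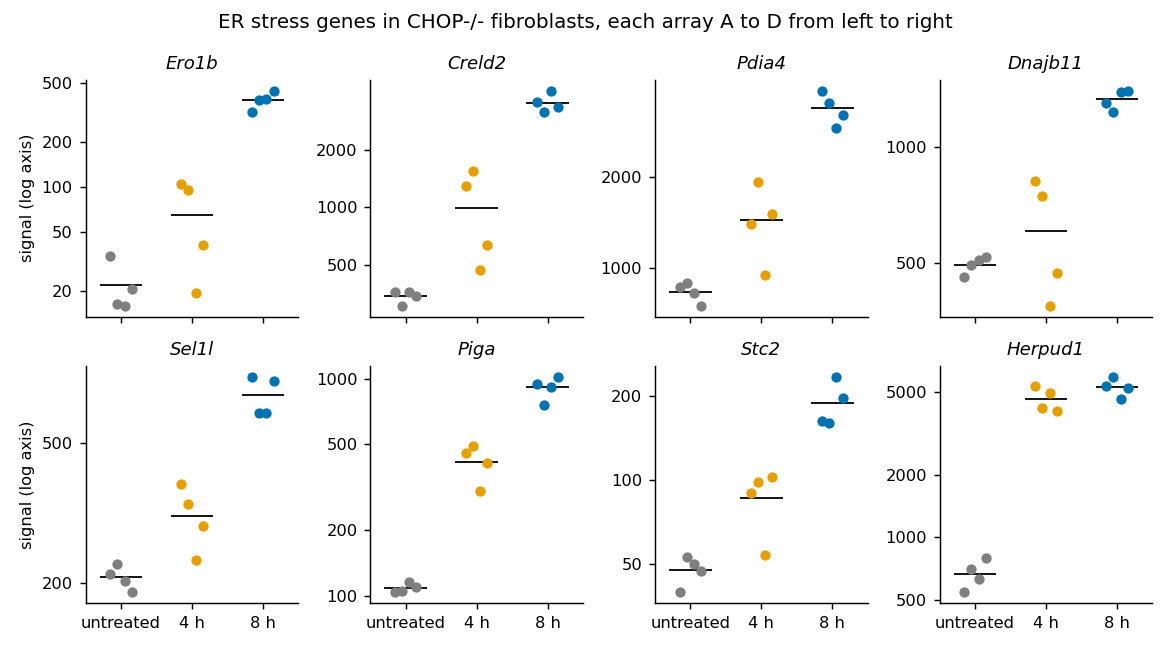
Deposited signal (vertical log axis, arbitrary units) of 8 ER stress genes in CHOP-/- cells, untreated, at 4 h and at 8 h, with 1 point for each array, A to D from left to right, and a bar at the group mean. In Ero1b and Creld2, 4 h arrays C and D lie under A and B and all 8 h arrays lie above the 4 h arrays, whereas Herpud1 is at 4060.1 or more in all 4 h arrays.

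Genes of ER-associated degradation, which takes misfolded proteins back to the cytosol, rose in part. Of 16 tested, 6 were called higher and none lower, with a median of 0.43, and 1 was called without C and D. Sel1l, the adaptor of the HRD1 ubiquitin ligase, gave 383.4, 336.2, 232.7 and 291 in the 4 h arrays and 775.1, 611.2, 608.4 and 753.7 in the 8 h arrays. There was no overlap, and the change of 1.13 (adjusted p = 3.5e-05) was 0.93 (adjusted p = 0.0035) without C and D. Derl1, a membrane protein of the retrotranslocation channel, changed by 0.80 (adjusted p = 0.00102), and Derl2 by 0.63 (adjusted p = 0.0485). A second probe set of Derl1, with mean signals of 563 at 4 h and 597 at 8 h, stood at 0.07 (adjusted p = 0.898), and the mean of both probe sets at 0.43 (adjusted p = 0.032). Edem2, Edem3 and Man1b1, which act in trimming mannose from glycoproteins to be degraded, changed by 0.44, 1.01 and 0.62. Leaving out C and D gave 0.54 (adjusted p = 0.063) for Derl1, 0.54 (adjusted p = 0.482) for Edem3 and 0.71 (adjusted p = 0.122) for Man1b1. The call of Edem3 also ended without C, D or 8 h array D alone, and that of Man1b1 without 8 h array C and without 4 h arrays A and B (0.54, adjusted p = 0.0635). Other members had moved before: Herpud1 had already risen by 2.77 at 4 h against untreated cells, and its difference from 4 h to 8 h was 0.22 (adjusted p = 0.257). Xbp1 had risen by 0.63 at 4 h, and its difference to 8 h was -0.08 (adjusted p = 0.789), in a probe set whose signal was not separated by spliced form.

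ER translocation and vesicle transport held 15 genes called higher of 54 tested and none lower, with a median of 0.20. Sec23b, a subunit of the COPII coat that buds vesicles from the ER, gave 684.6, 696.4, 648.9 and 547.1 at 4 h and 1261.4, 1132.6, 1166.5 and 1154.6 at 8 h. Stx5a, a SNARE of the path from ER to Golgi, gave 815.2, 1077.7, 856.5 and 778.5 at 4 h and 1455.6, 1609.4, 1624.3 and 1506.5 at 8 h. In neither gene did the groups overlap, and 4 h array C lay with A and B. Their changes were 0.86 (adjusted p = 0.000315) and 0.82 (adjusted p = 0.000626), and without C and D 0.77 (adjusted p = 0.0261) and 0.72 (adjusted p = 0.0427). Another, dimmer probe set of Sec23b stood at -0.04 (adjusted p = 0.982), and the mean of both at 0.41 (adjusted p = 0.269), which ended the call. Arfgap3, which acts on the COPI coat, changed by 0.92 (adjusted p = 0.000997), and Lman2, a cargo lectin, by 0.53 (adjusted p = 0.00394). Without C and D these were 0.63 (adjusted p = 0.105) and 0.47 (adjusted p = 0.109), and the mean of both probe sets of Lman2 stood at 0.22 (adjusted p = 0.435). Sec23b and Stx5a were the 2 members of this list called without C and D. Further members called higher were Uso1 (1.02), which tethers vesicles, Srp19 (0.96) and Srp68 (0.53) of the signal recognition particle and Sec63 (0.67) of the translocon.

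N-glycosylation and GPI anchor genes had 3 called higher of 29 tested, none lower, and a median of 0.07. Piga, which acts in the first step of GPI anchor synthesis, gave 455.2, 487.5, 302.2 and 408.9 at 4 h and 948.4, 751.5, 917 and 1020.9 at 8 h, against 103.8, 105.1, 115.3 and 109.5 in untreated cells. It stood higher in every 4 h array than in any untreated array and rose again without overlap. The second rise was 1.11 (adjusted p = 0.000103), and 0.92 (adjusted p = 0.0135) without C and D. Dpagt1, the enzyme that tunicamycin inhibits, gave 219.6, 213.5, 303.2 and 241.2 at 4 h and 320.7, 312.1, 314.4 and 378.8 at 8 h. Its change of 0.43 (adjusted p = 0.0482) was 0.62 (adjusted p = 0.0401) without C and D, and 0.25 (adjusted p = 0.271) without A and B, and the call was lost without any 1 array other than 4 h array C and with the mean of its probe sets (0.23, adjusted p = 0.289). Rpn1, a subunit of the oligosaccharyltransferase, changed by 0.32 (adjusted p = 0.0426), a call that ended without C and D (0.23, adjusted p = 0.418) and when any 1 array other than 4 h array A was left out, while the mean of its probe sets stood at 0.65 (adjusted p = 0.0121).

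Among targets of the PERK and ATF4 arm, 8 of the 28 tested had already been called higher at 4 h against untreated cells, a comparison in which 84 genes were called in all (1.48%). Between 4 h and 8 h, 4 were called higher and none lower, with a median of 0.21. Eif2ak3, which encodes PERK itself, gave 113.8, 99.4, 47.7 and 60 at 4 h and 154.7, 140.8, 182.9 and 189.5 at 8 h. Its 8 h arrays lay above all 4 h arrays, and its change was 1.12 (adjusted p = 0.0038), or 0.62 (adjusted p = 0.208) without C and D. Stc2, a secreted glycoprotein of the stanniocalcin family, gave 90, 98.1, 53.8 and 102.3 at 4 h and 162.8, 159.7, 234.1 and 196 at 8 h. The change of 1.12 (adjusted p = 0.0014) stood at 0.94 (adjusted p = 0.0495) without C and D, where Stc2 was the 1 member still called. Psph, of serine synthesis, and Atg12, of autophagy, changed by 0.58 (adjusted p = 0.0275) and 0.75 (adjusted p = 0.0283), and stood at 0.53 (adjusted p = 0.301) and 0.30 (adjusted p = 0.589) without C and D. Both calls were also lost without 4 h array C or D and without 8 h array A or D, that of Psph without 8 h array C and that of Atg12 without 8 h array B.

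The transcription factors of this arm did not pass between 4 h and 8 h. Atf4 gave 4338.5, 4492.8, 4329.4 and 3724.4 at 4 h and 5071.4, 4937.9, 3888.7 and 4717 at 8 h, with overlapping groups and a log2 difference of 0.12 (adjusted p = 0.538), after a rise of 0.93 at 4 h. Atf3 gave 537.3, 630.6, 1224.3 and 1247.5 at 4 h, highest in arrays C and D, and 636.3, 379.6, 603.4 and 480.6 at 8 h. Its log2 difference was -0.71 (adjusted p = 0.511). Trib3, a pseudokinase that restrains the stress response, stood at 0.38 (adjusted p = 0.47), and Ppp1r15a, the phosphatase subunit that reverses the PERK signal, at 0.36 (adjusted p = 0.328). Asns, asparagine synthetase, stood at 0.03 (adjusted p = 0.885), and at -0.02 (adjusted p = 0.936) with 4 h arrays A and B left out. Of 8 tested genes reported elsewhere to depend on CHOP, none was called higher and 1, Il6, was called lower, with a list median of 0.37. Over all genes tested 3.41% were called higher, so none of 8 does not show that such genes failed to rise. Under median centring 1 was called higher and 1 lower. At 4 h against untreated cells, 3 of the 8 had been called higher and none lower. Nupr1, a stress-induced chromatin protein, stood at 0.51 (adjusted p = 0.249). Car6, a secreted carbonic anhydrase, was under the filter on low signals, with 5.1, 3.8, 4.2 and 4.3 at 4 h and 3.3, 2.1, 2.2 and 3.5 at 8 h. Wars, the tryptophanyl-tRNA synthetase, was the 1 called of 20 synthetases (0.59, adjusted p = 0.00867; list median 0.25). Slc3a2, the heavy chain of amino acid exchangers, was the 1 called of 11 transporters (0.54, adjusted p = 0.00725; list median 0.50). Without C and D these became 0.51 (adjusted p = 0.183) and 0.38 (adjusted p = 0.201).

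Other genes were among the 15 largest rises without belonging to these lists. Rabepk, a kelch-repeat effector of the small GTPase Rab9, gave 110.4, 138, 42.3 and 70.5 at 4 h and 273.4, 322.7, 424.2 and 314.3 at 8 h, against 23.3, 11.3, 12 and 19.6 in untreated cells. Its change was 1.96 (adjusted p = 0.000167), and 1.38 (adjusted p = 0.0223) without C and D. Phkg2, a catalytic subunit of phosphorylase kinase, gave 151.8, 189.5, 163.1 and 156.1 at 4 h and 387.1, 402.2, 384.5 and 406.5 at 8 h. Here 4 h arrays C and D did not differ from A and B, and the change of 1.21 (adjusted p = 0.000391) was 1.19 (adjusted p = 0.0254) without C and D. Nucb2, a calcium-binding protein of the secretory pathway, changed by 1.36 (adjusted p = 0.000315) and Akap17b, an anchoring protein of protein kinase A, by 1.61 (adjusted p = 0.000125). Without C and D they changed by 0.93 (adjusted p = 0.0303) and 1.28 (adjusted p = 0.0207). Taf1d, a subunit of the RNA polymerase I initiation complex, gave 998.1, 1374, 272.8 and 502.3 at 4 h and 1971.7, 1536.8, 2737.6 and 2042.9 at 8 h. Its change of 1.59 (adjusted p = 0.023) became 0.77 (adjusted p = 0.575) without C and D, and the call was lost without either of them and without 8 h array C or D. Otud4, a deubiquitinase, gave 480.5, 370.8, 217.9 and 314.4 at 4 h and 1146.9, 550.8, 755.8 and 1427 at 8 h, and its change of 1.41 (adjusted p = 0.0155) became 1.11 (adjusted p = 0.306), with the call lost without C or D alone and without 8 h array A or D. The mean of the probe sets of Otud4 stood at 0.81 (adjusted p = 0.0263). Tspyl4, Apobec1, Timm9, Hoxa11 and Fndc3a, with changes between 1.21 (Fndc3a) and 1.43 (Tspyl4), were not called without C and D either. The call of Hoxa11 was also lost without C or D alone and without 8 h array B or D, and that of Timm9 without C alone. Timm9 imports proteins into mitochondria. Of 15 mitochondrial chaperones and proteases, 2 were called higher: Hspa9, the mitochondrial Hsp70 (0.57, adjusted p = 0.00119), and Timm8a1 (0.66, adjusted p = 0.0351). The list median was 0.07, and neither was called without C and D (0.51, adjusted p = 0.0606 and 0.64, adjusted p = 0.292). Timm8a1 was also lost without A and B (0.68, adjusted p = 0.0571) and without any 1 array other than 4 h array A and 8 h array B.

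Some immediate-early genes, which answer growth factors and stress within minutes to hours, fell between 4 h and 8 h: 9 of 36 tested were called lower and none higher, with a median of -0.56. Under median centring, 5 were called lower and the list median was -0.48. Nr4a1, an orphan nuclear receptor, gave 1352.5, 965.7, 1637.6 and 1111.6 at 4 h and 164.6, 70.7, 126.7 and 112.4 at 8 h. Every 8 h array lay far under every 4 h array. Its change was -3.38 (SE 0.377, adjusted p = 1.01e-05), the largest of any called gene, and -3.26 (adjusted p = 0.00079) without C and D. Id1, which binds and blocks basic helix-loop-helix factors, gave 782.2, 891.9, 988.7 and 947.7 at 4 h and 241.4, 167.6, 311.5 and 200.6 at 8 h. Its change was -1.98 (SE 0.187, adjusted p = 1.29e-06), and -1.88 (adjusted p = 0.00046) without C and D. Its relative Id2 gave 585.1, 606.3, 566.3 and 701 at 4 h and 192.8, 118.2, 260.3 and 239.8 at 8 h, a change of -1.63 (adjusted p = 0.00116). For both the groups lay apart, and 4 h arrays C and D were close to A and B. Ier3, a short-lived regulator of survival, changed by -1.09 (adjusted p = 0.000315), and Id2 and Ier3 stood at -1.57 (adjusted p = 0.0462) and -0.95 (adjusted p = 0.0316) without C and D. Errfi1, an inhibitor of the EGF receptor, gave 1254.3, 1433.3, 4339.9 and 3000.9 at 4 h, highest in C and D, and 959.1, 365.2, 841.9 and 478.5 at 8 h. Its change of -1.83 (adjusted p = 0.0125) became -1.14 (adjusted p = 0.382) without them, and the call was lost without either. Dusp6, Klf10, Plk2 and Ccn1 were the other 4 called lower, with changes between -1.09 (Klf10) and -0.40 (Plk2). In the fit without C and D, 4 members were called lower (Nr4a1, Id1, Id2 and Ier3), with a median of -0.41.

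Cholesterol synthesis genes, listed together with uptake and fatty acid genes that SREBP factors also drive, had 9 of 21 tested called lower and none higher, with a median of -0.76. Under median centring, 6 were called lower and the list median was -0.69. Without 4 h arrays C and D the list median was -0.38. Idi1, the isopentenyl diphosphate isomerase, gave 824.5, 561.8, 768.5 and 527.3 at 4 h and 199.3, 205.4, 133 and 107.3 at 8 h. Sqle, the squalene epoxidase, gave 1341.1, 971.2, 1414.8 and 1053.8 at 4 h and 475.5, 638.6, 392.1 and 454.4 at 8 h. In both the 8 h arrays lay under all 4 h arrays, and C and D fell within the range of the other 4 h arrays or just outside it. The changes were -2.05 (SE 0.232, adjusted p = 1.01e-05) and -1.29 (SE 0.145, adjusted p = 1.01e-05), and without C and D -2.09 (adjusted p = 0.000623) and -1.25 (adjusted p = 0.000623). Hmgcs1, which makes HMG-CoA, and Msmo1, a sterol demethylase, changed by -1.21 (adjusted p = 0.00545) and -1.23 (adjusted p = 0.00545). Left without C and D, they stood at -1.04 (adjusted p = 0.161) and -0.96 (adjusted p = 0.183), and Idi1 and Sqle were the 2 members called. Nsdhl (-1.08), Fdft1 (-0.91) and Tm7sf2 (-0.76), enzymes of the same pathway, and the fatty acid genes Scd2 (-0.52) and Elovl6 were also called lower. Elovl6, an elongase, gave 65.7, 55.7, 46.8 and 50.5 at 4 h and 22.6, 22.3, 26.3 and 24.3 at 8 h. All its 8 h arrays lay under the filter signal of 27.7, so its level fell at least 1.97-fold when that signal stands for the 8 h arrays, and its log2 change was -0.90 (adjusted p = 0.0208). Its call did not hold without C and D (-1.08, adjusted p = 0.106) or without A and B (-0.72, adjusted p = 0.0904), nor when 4 h array A or 8 h array D was left out. At 4 h against untreated cells the list had 1 called member, Elovl6 (-0.88), and a median of 0.01.

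Some inflammatory mediators rose at 4 h and some fell from 4 h to 8 h. Of 28 chemokine, cytokine and NF-kappaB genes tested, 6 were called higher at 4 h against untreated cells and none lower, with a median of 0.42. Between 4 h and 8 h, 4 were called lower and none higher, with a median of -0.27. Cxcl1, a neutrophil chemokine, gave 441.6, 715.6, 399.3 and 1131.3 in untreated cells, 1422, 1105.1, 2658.3 and 1977.3 at 4 h and 437.5, 215.8, 470.3 and 181.5 at 8 h. The 4 h arrays lay above all 8 h arrays, with C and D highest. Its change to 8 h was -2.48 (SE 0.353, adjusted p = 0.000167), and -2.06 (adjusted p = 0.0272) without C and D. Il6, the cytokine interleukin 6, gave 1255.1, 675.5, 759.6 and 568.7 at 4 h and 330, 135.3, 197.7 and 91.7 at 8 h. Its change of -2.17 (adjusted p = 0.013) was -2.40 (adjusted p = 0.114) without C and D, and the call was also lost without 8 h array D. Tnfaip3 (A20) and Nfkbia, feedback inhibitors of NF-kappaB, changed by -1.69 (adjusted p = 0.00695) and -0.99 (adjusted p = 0.0281), and stood at -1.48 (adjusted p = 0.137) and -0.65 (adjusted p = 0.479) without C and D. The call of Nfkbia was also lost without C or D alone, without 8 h array A, C or D and under median centring. Cxcl1 was the 1 member of the list still called then. Further mediators outside the list were among the 15 largest falls. Nfkbiz, a nuclear NF-kappaB cofactor, changed by -1.71 (adjusted p = 0.0152), Ptger4, a prostaglandin receptor, by -1.65 (adjusted p = 0.0094), and Ch25h, which makes an oxysterol, by -1.93 (adjusted p = 0.0152). None was called without C and D (-1.59, adjusted p = 0.221, -1.77, adjusted p = 0.109 and -1.39, adjusted p = 0.363). The calls of Nfkbiz and Ch25h were also lost without 4 h array C or 8 h array D, and that of Ch25h without 4 h array D. The mean of the probe sets of Nfkbiz stood at -0.97 (adjusted p = 0.0209).

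**Figure D3:**
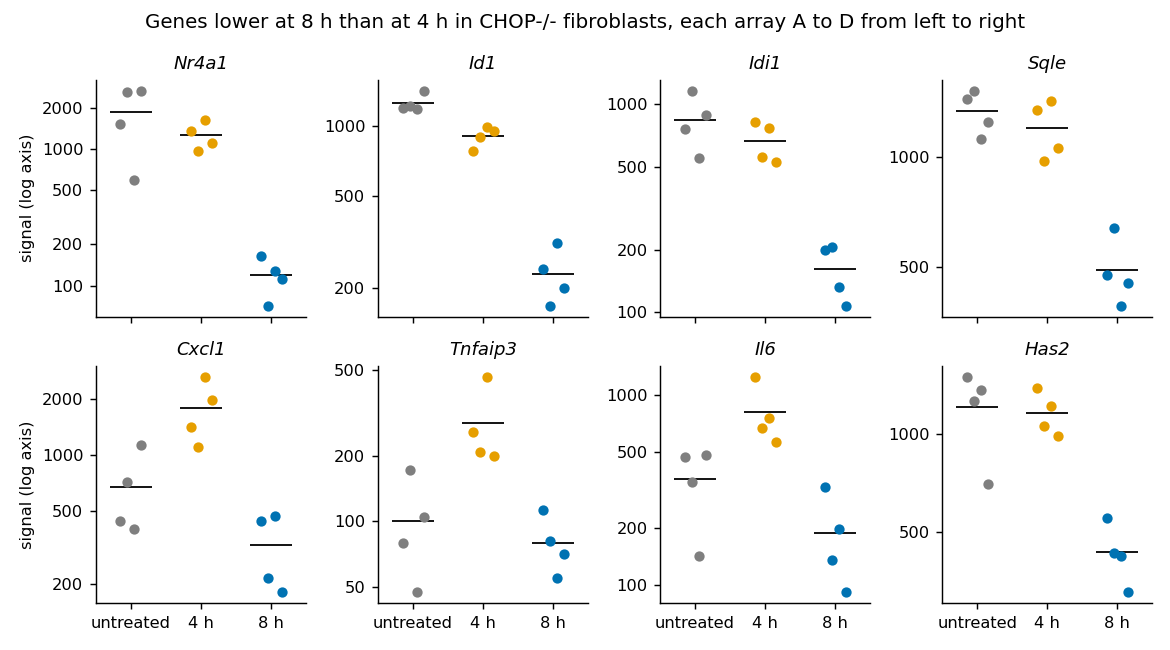
Deposited signal (vertical log axis, arbitrary units) of 8 genes lower at 8 h than at 4 h in CHOP-/- cells, untreated, at 4 h and at 8 h, with 1 point for each array, A to D from left to right, and a bar at the group mean. Nr4a1, Id1, Idi1, Sqle and Has2 leave the untreated range at 8 h, whereas Cxcl1, Tnfaip3 and Il6 have their highest arrays at 4 h.

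Genes of the cell surface and matrix were also among the falls. Has2, which makes hyaluronan, gave 1389.5, 1059.6, 1220.8 and 989.7 at 4 h and 551, 429.1, 419 and 324.6 at 8 h, without overlap. Its change was -1.45 (adjusted p = 0.00128), and -1.52 (adjusted p = 0.0303) without C and D. F3 (tissue factor) gave 2567.8, 2307.6, 3847.9 and 2953.5 at 4 h and 1161.9, 556.6, 1603.1 and 663 at 8 h, and Plau (urokinase) gave 81, 68.5, 125.7 and 187.8 and 36, 23.3, 40.5 and 30.3. Both groups of arrays lay apart for each gene. Their changes of -1.62 (adjusted p = 0.0142) and -1.55 (adjusted p = 0.00768) became -1.40 (adjusted p = 0.254) and -1.03 (adjusted p = 0.287) without C and D, and the call of F3 was also lost without C alone and without 8 h array D. Socs2, an inhibitor of cytokine signalling, changed by -1.52 (adjusted p = 0.0177), and stood at -1.78 (adjusted p = 0.106) without C and D. The call was lost without A and B (-1.26, adjusted p = 0.0764) and without 8 h array D as well. Of 54 extracellular matrix genes, 3 were called lower and none higher: Has2, Mfap2 of the microfibrils (-1.0, adjusted p = 0.00208) and Ccn1 (-0.52, adjusted p = 0.0338). The list median was -0.10, and 0.00 under median centring. Has2 was the 1 member called without C and D. The call of Ccn1 was also lost under median centring and without any 1 array other than 4 h array B and 8 h array C.

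Cell cycle and DNA replication genes went both ways. Of 69 tested, 7 were called lower and 2 higher, with a median of -0.18. Under median centring the counts were 3 lower and 4 higher, and the median was -0.09, so the balance of this list followed the scaling. Cdt1, which licenses replication origins, changed by -0.61 (adjusted p = 0.0115), Ccnd3 (cyclin D3) by -0.59 (adjusted p = 0.0127) and Rfc2, of the clamp loader, by -0.59 (adjusted p = 0.0138). Rpa1 (single-strand binding, -0.76, adjusted p = 0.0193), Wee1, Mcm3 and Pcna were the other falls. Orc2 and Orc4, subunits of the origin recognition complex, were higher, with 0.80 (adjusted p = 0.0292) and 0.60 (adjusted p = 0.0292). No member was called without C and D. Of those named with values, Rfc2, Rpa1, Orc2 and Orc4 were lost without array C alone, Rpa1 and Orc4 without D alone, Rpa1 without 8 h array C, Orc2 without 8 h array C or D, and Orc4 without 4 h array A or 8 h array A, C or D. Among 25 genes of the BCL2 family and caspases, Birc2, an inhibitor of apoptosis, was called higher (0.81, adjusted p = 0.0181) and Casp6, an effector caspase, lower (-0.62, adjusted p = 0.0325), with a list median of -0.12. Neither was called without C and D (0.54, adjusted p = 0.407 and -0.53, adjusted p = 0.34), without either of these arrays, or without 8 h array C, and Casp6 was lost without 8 h array A too. A dimmer probe set of Birc2 stood at -0.62 (adjusted p = 0.559), and the mean of both at 0.09 (adjusted p = 0.882), so that the rise of Birc2 rested on 1 probe set.

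The remaining lists held at most 1 call each. Gsr, glutathione reductase, was the 1 called of 25 NRF2 genes (-0.73, adjusted p = 0.0303; list median -0.11), and Plk2 the 1 called of 13 p53 targets (-0.40, adjusted p = 0.0171; median -0.10). Pfkm of glycolysis (-0.81, adjusted p = 0.0236; 1 of 24, median -0.15) and Uqcrh of the respiratory chain (-0.66, adjusted p = 0.0215; 1 of 56, median -0.14) were lower. Eif1a, a translation initiation factor, was higher (0.59, adjusted p = 0.00369; 1 of 28, median 0.02). None of these 5 was called without C and D, with adjusted p-values of 0.314, 0.201, 0.547, 0.314 and 0.137 in that order. Eif1a was otherwise called whichever single array was left out. Gsr, Plk2, Pfkm and Uqcrh were each lost without 4 h array D and without 8 h array C, as well as on leaving out other arrays. No call fell among 37 proteasome genes (median -0.13), 23 ribosomal protein genes (-0.02), 17 interferon-stimulated genes (-0.05), 15 cytosolic heat shock genes (-0.02) or 5 snoRNA host genes (1.10). Over all genes tested 5.53% were called, so lists of this size would hold few calls, and none does not show that they were unmoved. Without 4 h arrays A and B, 6 proteasome genes were called lower and none higher, with a median of -0.26. Without C and D that median was -0.01. Of all genes tested, 1123 had an unadjusted p under 0.05. The medians of the interferon, glycolysis and NRF2 lists were within 0.15 of 0 under quantile normalization, and that of the ribosomal protein list was 0.06 under median centring.

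**Figure D4:**
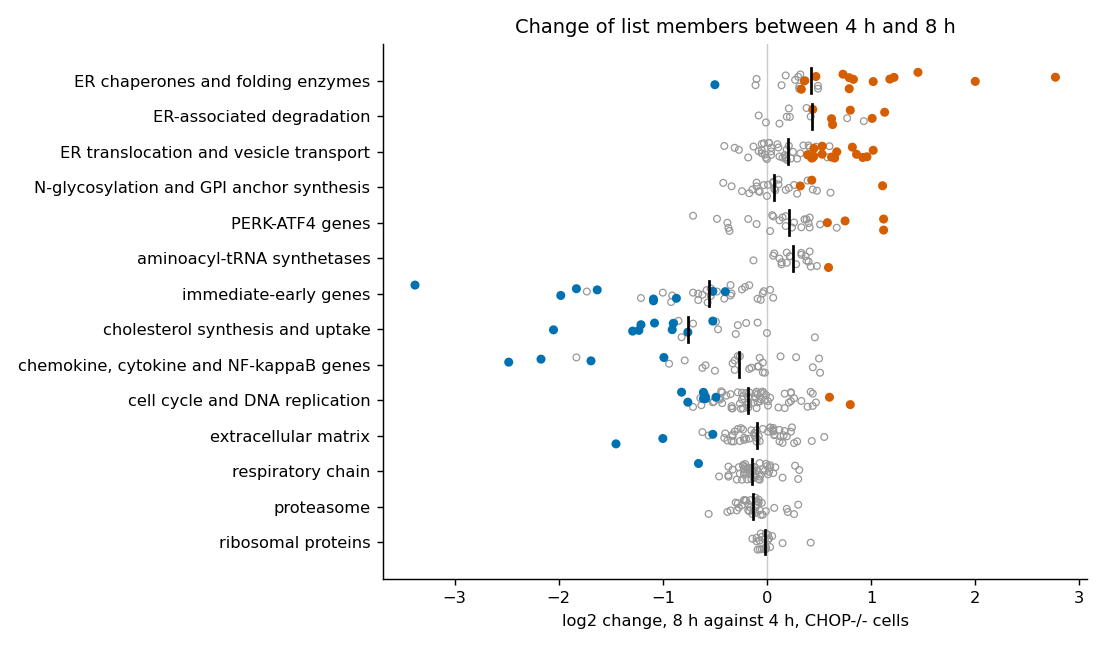
Log2 change from 4 h to 8 h in CHOP-/- cells (horizontal axis) of each tested member of 14 gene lists, with orange points called higher, blue points called lower, open points not called and a black bar at the list median. Called members of the ER lists lie to the right except Txndc12 (-0.50), with 13 of 26 chaperones called higher, and those of the immediate-early and cholesterol lists to the left, 9 of 36 and 9 of 21.

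Together with untreated cells, the 315 genes were placed by when they moved. The comparisons share the 4 h, the 8 h or the untreated arrays, so the counts describe these arrays and are no independent evidence of one another. Those that went on, called at 4 h and again in the same direction to 8 h, numbered 16. The 13 rises were Arntl, Creld2, Dnajb9, Dnajc3, Manf, Pdia4, Phkg2, Piga, Rabepk, Rad52, Sel1l, Slc3a2 and Stc2. Their median log2 change was 0.78 from untreated to 4 h and 1.12 from 4 h to 8 h. The 3 that fell both times were Elovl6, St6gal1 and Synpo. Synpo, an actin-associated protein, gave 222.7, 237.7, 265.8 and 196.5 in untreated cells, 97.4, 80.1, 115.4 and 104.6 at 4 h and 72.2, 65.1, 45 and 42 at 8 h. St6gal1, a sialyltransferase, changed by -0.90 to 4 h and by -0.73 (adjusted p = 0.0306) from 4 h to 8 h. Of the 16, 7 were still called between 8 h and 4 h without C and D, and Synpo (-0.61, adjusted p = 0.339) and St6gal1 (-0.49, adjusted p = 0.48) were not. Both were also lost without C or D alone, Synpo without 8 h array C or D and St6gal1 without 8 h array A. The second probe set of St6gal1 stood at -0.05 (adjusted p = 0.979), and the mean of both at -0.39 (adjusted p = 0.377).

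Reversal was the smallest class, with 6 genes. Cxcl1, Rgs16 and Tnfaip3 were called higher at 4 h and lower from 4 h to 8 h. Rgs16, which switches off G-protein signals, gave 1849.4, 2508.3, 1119.5 and 2257.4 in untreated cells, 4358.7, 3136.8, 5250.4 and 2879.7 at 4 h and 1724.1, 1737.1, 1296 and 1025.3 at 8 h. Its second change was -1.39 (adjusted p = 0.0013), and -1.37 (adjusted p = 0.0374) without C and D. Mnt, Smc6 and Wdr81 went down and then up. Mnt, an antagonist of MYC, gave 136.7, 142.4, 121.8 and 134.6 in untreated cells, 81.9, 97.6, 48.6 and 83.4 at 4 h and 174.8, 206.4, 181.6 and 157.3 at 8 h, a second change of 1.21 (adjusted p = 0.000965), and 0.96 (adjusted p = 0.057) without C and D. Smc6, a subunit of a chromosome-maintenance complex, and Wdr81, of endosome traffic, changed by 0.69 (adjusted p = 0.0393) and 0.62 (adjusted p = 0.00637), and stood at 0.32 (adjusted p = 0.673) and 0.65 (adjusted p = 0.063) without C and D, and Smc6 was lost without C or D alone and without any 1 of the 8 h arrays. The 4 h arrays enter both changes with opposite sign, so an extreme 4 h mean alone gives opposite directions. No gene met the rule without C and D, and 67 met it without A and B.

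Late onset took in most of the 315. There were 227 genes called between 4 h and 8 h and at 8 h against untreated cells in the same direction, not called at 4 h, and with less than 0.5 of the 8 h change present at 4 h. The comparison of 8 h with untreated cells called 792 genes in all (13.9%). Of the 227, 140 rose and 87 fell. The median change of the risen was 0.13 to 4 h and 0.72 from 4 h to 8 h, and that of the fallen was -0.15 and -0.74. Ero1b, Akap17b, Taf1d, Nucb2 and Dnajb11 were among those that rose and Nr4a1, Idi1, Id1, Id2 and Has2 among those that fell. Ero1b shows how the class depends on the 4 h arrays: it was 34.3, 16.3, 15.8 and 20.7 in untreated cells, so 4 h arrays A and B stood above that range, C stood within it and D just above it. Not being called at 4 h does not show that nothing had changed. The 8 h arrays enter both changes with the same sign, so an extreme 8 h mean alone gives the same direction. The rule was met by 23 genes without C and D and by 366 without A and B. The other 66 genes met none of the 3 rules.

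Most genes called at 4 h did not pass from 4 h to 8 h, which does not show that they held their level. The count called at 4 h was 71 without 4 h arrays C and D and 142 without A and B. The split below is for all arrays only. Of the 84 genes called at 4 h, 62 were not called from 4 h to 8 h. Of these, 50 were called at 8 h against untreated cells in the same direction, 36 higher and 14 lower. Herpud1, Atf4, Trib3, Ppp1r15a and Xbp1 belonged to them, as did Gadd45a, a growth-arrest gene, with 1.97 at 4 h and a further 0.67 (adjusted p = 0.0875) to 8 h. Siah2, a ubiquitin ligase, and Nfil3, a transcriptional repressor, stood at 1.55 and 1.51 at 4 h, with differences of 0.26 (adjusted p = 0.505) and -0.18 (adjusted p = 0.706) to 8 h. On the lower side, Gas1, a growth-arrest membrane protein, and Mki67, a marker of proliferation, were -1.56 and -1.20 at 4 h, with differences of -0.26 (adjusted p = 0.579) and 0.26 (adjusted p = 0.641) to 8 h. The remaining 12 were called at 4 h and at neither later comparison.

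The same interval was then set against wild type cells, which shared no array with it. There, 235 genes were called between 8 h and 4 h (4.13%), 119 higher and 116 lower. Called in both genotypes in the same direction were 114 genes, 36.2% of the CHOP-/- calls and 48.5% of the wild type calls, and none was called in opposite directions. This overlap was counted with all arrays only, and 33 CHOP-/- genes were called without 4 h arrays C and D. The changes of all 5692 genes correlated with r = 0.63 across genes, which are not independent replicates. All 5 of the following passed there too: Ero1b changed by 1.98 in wild type cells, Creld2 by 1.49, Nr4a1 by -3.21, Idi1 by -2.38 and Id1 by -1.83. The wild type counts were 11 of 26 higher for ER chaperones (median 0.50), 11 of 36 lower for immediate-early genes (-0.52) and 3 of 21 lower for cholesterol genes (-0.52, with 1 higher).

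The difference between the genotypes was tested for each gene as the change in CHOP-/- cells less that in wild type cells. No gene was called (0 of 5692, 0%) by limma, and 250 genes (4.39%) had an unadjusted p under 0.05. The median SE of this difference was 0.268, against 0.189 for a change within 1 genotype. For Ero1b the difference was 0.78 (SE 0.504), for Creld2 0.50 (SE 0.355), for Taf1d 1.08 (SE 0.574) and for Has2 1.0 (SE 0.357). Cxcl1 gave -0.88 (SE 0.499) and Piga 0.67 (SE 0.214). A p that misses the threshold does not show that the genotypes moved alike. With 4 h arrays A and B left out, 3 genes were called, Fbln2, Meis1 and Rin2, with differences of 1.16, 2.04 and 1.53 (adjusted p = 0.0068, 0.0369 and 0.0369), and 770 had an unadjusted p under 0.05. With C and D left out, none was called, and none with the letter as a block.

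**Figure D5:**
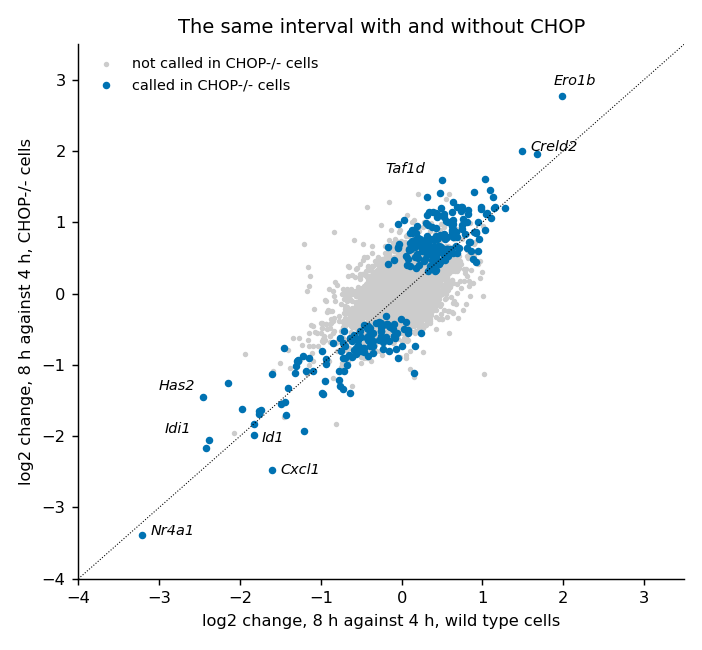
Log2 change from 4 h to 8 h of each of 5692 genes in wild type cells (horizontal axis) and CHOP-/- cells (vertical axis), with blue points for the 315 genes called in CHOP-/- cells, grey points for the rest and a dotted line where both changes are equal. Nr4a1 lies at -3.21 and -3.38 and Ero1b at 1.98 and 2.77, and no gene was called in the difference between the genotypes.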

How the data were processed

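Arrays of oligonucleotide probes, 24 in all and 4 for each of 6 groups, measured total RNA of primary fibroblasts from mouse embryos. The deposited values are probe set signals (linear intensity), which the authors scaled before deposit as far as the values show: trimmed by 2% at each end, the mean signal was 250.1 to 250.2 on every array (software: not given in the sources used here). Median signals were 48.2 to 72.6.

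Of 12488 probe sets, 10833 had 1 gene in the annotation of the array and were no controls. They stood for 8251 genes, each by its probe set of highest mean signal. A pseudocount of 5.7 (the 20th percentile) was added to signals, log2 values were quantile normalized, and 5692 genes with a mean log2 value above 5.064 (a signal of 27.7, the 40th percentile) were tested. A linear model of 6 group means over all 24 arrays was fitted in limma 3.58.1 (R 4.3.3) with a trend on intensity (5.2 prior and 18 residual degrees of freedom), and genes were called at a two-sided Benjamini-Hochberg adjusted p under 0.05 within a contrast. The number of arrays limits the precision: the median SE of a log2 change was 0.189. Tested on simulated data of 5692 genes for CHOP-/- cells at 8 h against 4 h, the model recovered 88% of 100 changes of 1 log2 unit and 99% of 100 of 2 units, with 10 calls among unchanged genes. The simulated noise was independent between genes and arrays. It held no split of 4 h arrays A and B from C and D, so these figures do not cover that split.

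Genes were named by a rule: 14 stress genes always, the 15 largest rises and falls of called genes with no overlap of arrays, up to 6 or 8 genes a direction of each class, for each list up to 4 called members of smallest adjusted p and those called against the list's direction. Fbln2, Meis1, Rin2, Gadd45a, Siah2, Nfil3, Gas1, Mki67, Canx and further called list members were named after their values were seen. The members, lists and tests were chosen with earlier results of these data known. The letters A to D did not pair the CHOP-/- samples at 4 h with those at 8 h: the deviations of same-letter arrays at 4 h and 8 h correlated at 0.03, -0.06, -0.13 and 0.31. In wild type cells they correlated at 0.25, 0.38, 0.61 and 0.6. There, 4 h arrays B, C and D correlated best with their own letter at 8 h and A with B, so pairing by the values alone was partial. Between the genotypes they correlated at 0.36, 0.42, 0.55 and 0.29 at 8 h, each array best with its own letter, and at 0.46, -0.07, 0.2 and 0.04 at 4 h. Alternatives changed the pseudocount, normalization, filter, probe set choice, arrays fitted, array weights, trend and letter block, and left out arrays. Promoters came from RefSeq (GRCm38.p6). Figures were drawn with Python 3.11.15 and matplotlib 3.10.9.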

Additional observations from a re-analysis of the deposited data

Results flagged for a closer look

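In 186 groups of 4 arrays, 93 named genes at 4 h and at 8 h, 5 had 1 array far from the other 3 by Dixon's test, which chance alone gives in about 1 of 20 groups. Ptger4, the prostaglandin receptor, stood out at both times: 4 h array A gave a signal of 184.5 against 118.7 to 125.6 in the other arrays, and 8 h array D gave 19 against 43.9 to 48. The 8 h array D of Dpagt1, the enzyme that tunicamycin inhibits, gave 378.8 against 312.1 to 320.7. Arfgap3, of the COPI coat, gave 872.5 in 8 h array B against 691.7 to 718.4. Timm8a1, of mitochondrial import, gave 284.7 in 4 h array C against 318.6 to 320.6. Their causes were not tested.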

How the results depend on the processing

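The 2 fits without pairs of 4 h arrays were chosen after seeing the data. Of 82 genes named by the rule and called from 4 h to 8 h in CHOP-/- cells, 21 kept the call in every alternative run, 59 lost it without 4 h arrays C and D, 5 without A and B, and none changed sign. Of 10 named by the rule and not called, 1 changed sign: Asns, -0.02 (adjusted p = 0.936) without A and B. Called genes numbered 160 (90 higher, 70 lower) with only the compared groups fitted, 33 (21 and 12) without C and D and 780 (466 and 314) without A and B. Median centring gave 53 lower. Leaving out 1 array gave 120 to 408 (78 to 271 higher, 42 to 144 lower). Calls at 4 h against untreated cells were 48 without further normalization, 38 with median centring, 53 without a filter, 20 with only the compared groups and 142 without A and B, and 47 to 66 without 1 array. Calls at 8 h against untreated cells ranged from 577 to 739 without 1 array. In wild type cells 108 were called from 4 h to 8 h with only the compared groups, and 108 to 188 without 1 array. Of the genotype difference, 3 were called without A and B and 0 in every other alternative.

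Median centring ended the calls of Hspa5, Txndc12, Smc6, Rpn1, Psph, Gsr, Plk2, Cdt1, Rpa1, Ccn1, Nfkbia, Uqcrh and S100a4, and the mean of the probe sets those of St6gal1, Sec23b, Lman2, Dpagt1 and Birc2. Fitting only the compared groups ended those of Hspa5, Hsp90b1, Taf1d, Hoxa11, Smc6, Synpo, St6gal1, Txndc12 and Rpn1. It also ended those of Dpagt1, Atg12, Gsr, Casp6, Rfc2, Rpa1, Orc2, Orc4 and Pfkm, so these calls rested on the spread of the other groups as well.

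The classes moved more. Genes that went on numbered 9 without further normalization, 7 with median centring, 9 without a filter and with every probe set, 4 with only the compared groups, 8 without C and D and 6 without A and B (6 to 13 without 1 array). Reversals numbered 3, 2, 1, 1, 2, 0 and 67 in the same order, 3 with array weights and 1 to 10 without 1 array. Late genes numbered 129 with only the compared groups, 23 without C and D and 366 without A and B (92 to 274 without 1 array). With the letter as a replicate block, the CHOP-/- count from 4 h to 8 h was 407 (313 of them among the 315), the reversals 10, and the wild type count 293; no gene named by the rule lost its call, Ero1a gained one (0.49, adjusted p = 0.0421), and not every array correlated best with its own letter. Apart from the composition of the alternatives, the cause was not tested. Signals under 27.7 are close to background and limit what can be said of Car6, Ddit3 and Elovl6. Arrays of other named genes lay under it too. Among them were 4 h arrays C and D of Akap17b (16.2 and 24.9) and 4 h array C of Ero1b (19.4). So did 8 h array B of Plau, 8 h array D of Ptger4 (19) and every untreated CHOP-/- array of Akap17b and Rabepk.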

Other observations

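Some probe sets had no single gene symbol and stood outside every comparison of genes. There were 1589 of them, 679 passed the filter, and 21 were called from 4 h to 8 h in CHOP-/- cells (13 higher, 8 lower, 3.09%). Of 55 called genes with several tested probe sets, 5 had probe sets of opposite sign (Cggbp1, Ddx50, Noct, Rsl1d1 and Sec23b), and in none were both called in opposite directions.

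The snoRNA host genes had the highest list median with no call. From 4 h to 8 h in CHOP-/- cells, Snhg5 stood at 1.40 (adjusted p = 0.0639) on the log2 scale, Snhg1 at 1.10 (adjusted p = 0.0524) and Epb41l4aos at 0.97 (adjusted p = 0.0581) (limma, Benjamini-Hochberg). Gas5 stood at 1.40 (adjusted p = 0.377) and Snhg6 at 0.39 (adjusted p = 0.605). The list median of 1.10 was 0.45 without 4 h arrays C and D and 1.85 without A and B, with 3 members called in the latter. In wild type cells the list median was 0.46. Under median centring, 1 member was called higher and none lower in CHOP-/- cells, with a list median of 1.19.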
